A study of Mus musculus with 4 samples.

Results

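Alveolar type 1 (AT1) epithelial cells were looked for in single-cell RNA-seq of bleomycin-injured mouse lung by a rule on measured UMIs, which are counts of captured mRNA molecules. The cells were chosen by detection in every deposited library, within 200 to 7500 genes and at most 15% mitochondrial UMIs. They had a UMI of at least 3 of Hopx, Ager, Rtkn2, Akap5, Clic5 and Emp2 with Ager or Rtkn2 among them. They also had a UMI of the epithelial genes Epcam or Cdh1 and no UMI of Cldn4, Foxj1, Ptprc, Cdh5 or Pdgfra. The rule held for 324 of the 30860 cells within the limits on genes and mitochondrial UMIs, out of 32121 cells deposited. Of these, 169 came from WT and 155 from Tubb3-/- mice. All animals were adult mice that had received 0.8 U/kg bleomycin into the trachea 14 days earlier. The groups were 2 WT littermates and 2 Tubb3-/- mice, in which Cre had been inserted at the start of Tubb3, the gene of the neuronal β-tubulin Tuj1. The deletion was constitutive, so AT1 cells and all other cells carried it. Each mouse gave a whole lung library depleted of red blood cells and a mural cell-enriched library depleted of CD31, CD45, EpCAM and red blood cells and then sorted on MCAM and PDGFRα. The whole lung libraries held 112 of the chosen cells and the mural cell-enriched libraries 212, although the latter had been depleted of EpCAM.

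AT1 cells are the thin, flat cells that cover most of the alveolar surface and form, with the capillary endothelium and a shared basement membrane, the barrier for gas exchange. They carry Ager, the receptor for advanced glycation end products, the cofactor Hopx, water and sodium channels and many caveolae, and they supply growth factors such as Vegfa to capillaries. After injury they are replaced mainly from alveolar type 2 (AT2) cells, which make surfactant and pass through a transitional state (PATS) with high Cldn4, Krt8 and p53 target genes.

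The libraries held 41462258 to 95036340 gene UMIs, and no barcode was shared within a pool, while 59 barcodes occurred in both pools. The chosen cells held 1365211 and 1727660 UMIs in the WT mice and 1372905 and 1544593 UMIs in the Tubb3-/- mice, with a median of 16811 UMIs per cell. Replicates were separate mice, so n was 2 per genotype throughout, and cells of a mouse were summed. At the edge of the rule, 67 cells had exactly 3 of the 6 genes and 71 further cells had exactly 2 and were left out. Their values were close, with a median of 8.71 Ager UMIs per 10000 UMIs inside and 5.17 outside, compared with 86.7 in the 143 cells that had all 6 genes. A UMI of Cldn4 alone kept out 144 cells, and a missing UMI of Epcam and Cdh1 kept out 151.

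The label held for a part of these cells. Sftpc, the surfactant protein C gene that defines AT2 cells and had no place in the rule, divided them: 118 cells had 300 or more Sftpc UMIs per 10000 UMIs, 177 had fewer than 30, and 29 lay between. Groups were therefore cut after the values had been seen, and differences between these groups are given as descriptions with no test. Cells with at least 100 Sftpc UMIs per 10000 were called surfactant-high (136 cells), and those with at least 100 Scgb1a1 UMIs secretoglobin-high (10 cells). Cells with a UMI of at least 3 of 6 mesothelial genes were called mesothelial-gene cells (5 cells). Of the others, those with at least 20 Ager UMIs were called Ager-high (141 cells) and the rest Ager-low (32 cells). All 6 rule genes were found in 115 of 141 Ager-high cells but in 20 of 136 surfactant-high cells, of which 48 passed with exactly 3. The surfactant-high cells had a median of 1362 Sftpc and 12.8 Ager UMIs per 10000, and the Ager-high cells 2.50 Sftpc and 88.0 Ager UMIs. Both groups were deep, with medians of 22007 and 13311 UMIs per cell. Of the 36 Ager-high or Ager-low cells between 10 and 40 Ager UMIs per 10000, the assignment turned on the chosen value of 20.

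**Figure D1:**
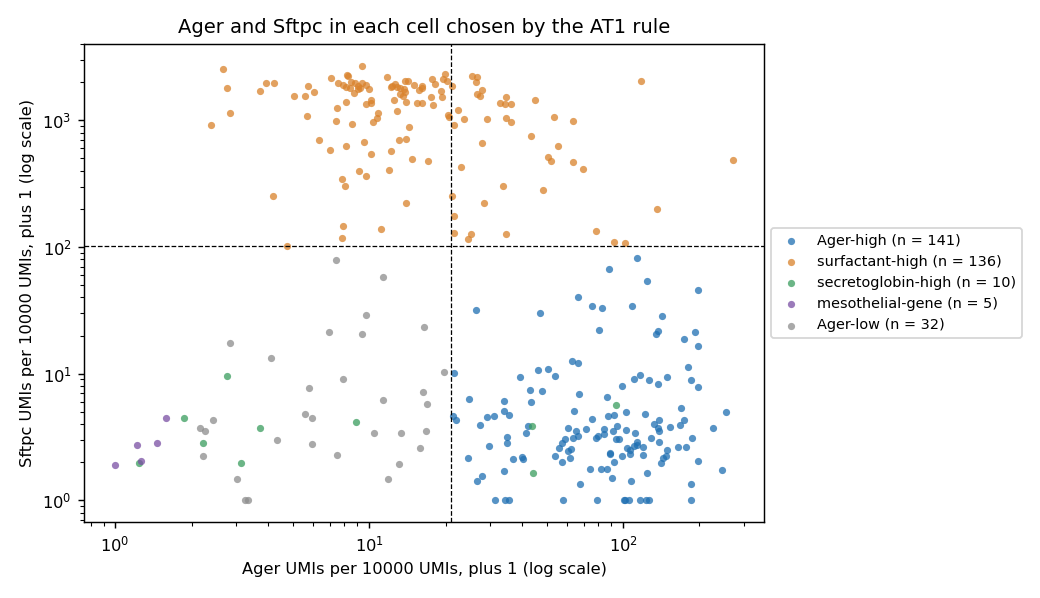
Ager UMIs (x axis) against Sftpc UMIs (y axis), each per 10000 UMIs plus 1 on log axes, in each of the 324 cells, coloured by group, with dashed lines at the values that separate the groups. The 136 surfactant-high cells form a cloud above the horizontal line with low to middle Ager, and the 141 Ager-high cells lie at the lower right.

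Part of the marker genes outside the rule gave the same division. With every cell thinned to 2000 UMIs, the AT1 genes Spock2 and Pdpn were found in 58.4% and 49.6% of Ager-high cells and in 0.735% and 5.88% of surfactant-high cells (unthinned 78.0% and 79.4%, and 6.62% and 24.3%). The AT2 genes Lamp3, of the lamellar body, and Slc34a2, a phosphate transporter, were found in 75.7% and 86.0% of surfactant-high cells and in 1.46% and 2.19% of Ager-high cells. These genes thus parted the chosen cells in the same way as Sftpc, while others did so less. In thinned Ager-high and surfactant-high cells, Cldn18 was found in 93.4% and 76.5%, Aqp5 in 83.9% and 61.8% and Lmo7 in 92.0% and 55.9%. The AT2 genes Sftpd and Napsa were found in 31.4% and 23.4% of thinned Ager-high cells. Only the Ager-high cells were led by AT1 genes. As background, detection was read in 4148 thinned cells with Cdh5 and without Ptprc, which should lack Sftpc, Ager and Rtkn2 and had a median of 8556 UMIs before thinning. Of these, 43.8% had a Sftpc, 4.12% an Ager, 0.796% a Rtkn2, 3.81% a Sftpd and 2.31% a Napsa UMI. Sftpc detection in 46.7% of thinned Ager-high cells was near that background, but this group had been cut at a low Sftpc level. Ager was found in 89.0% of thinned surfactant-high cells. The rule had required a UMI of Ager or Rtkn2 in each of them, so this share cannot be weighed against the background. Clic5 and Emp2 gave no such background, since 47.2% and 27.4% of the thinned Cdh5-positive cells had a UMI of them. Over both libraries, these cells held 314 and 364 against 339 and 374 CPM of Clic5 (UMIs per 1000000 UMIs, WT against Tubb3-/- mice). Ager was at 167 and 218 against 116 and 71.2 CPM there, below Clic5 in every mouse. It was lower in both Tubb3-/- mice there, as in Ager-high cells, and the part of background in Ager levels was not tested. The 10 secretoglobin-high cells were led by the club cell genes Scgb3a2 and Scgb1a1 and held no Pdpn UMI, and the 5 mesothelial-gene cells held 4 cells with all 6 mesothelial genes, among them Msln, Upk3b and Wt1. Scrublet marked 6 of the 324 cells as doublets.

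The cell groups were not evenly spread over mice. In the whole lung libraries, Ager-high cells numbered 12 and 6 in WT and 15 and 10 in Tubb3-/- mice, and surfactant-high cells 17 and 21 in WT and 7 and 5 in Tubb3-/- mice. Surfactant-high cells were thus 17 of 34 and 21 of 29 chosen whole lung cells in WT and 7 of 30 and 5 of 19 in Tubb3-/- mice, shares that did not overlap. In the mural cell-enriched libraries the same shares were 41.9% and 41.3% in WT and 33.3% and 45.5% in Tubb3-/- mice, and they overlapped. Secretoglobin-high cells numbered 3 and 0 in WT and 4 and 3 in Tubb3-/- mice over both libraries. Ager-low cells numbered 7 and 6 in WT and 17 and 2 in Tubb3-/- mice, so that Tubb3-/- 1 stood above the other mice. Their leading genes were the globin genes Hba-a2, Hba-a1 and Hbb-bs, the protease gene Pgc, Fgfbp1, Ckap2 and Gdf15, a stress-induced cytokine, and no cell type is named for them. These counts set what a sum over all chosen cells of a mouse contains, and the results below are given with them. Over all mice, surfactant-high cells gave 51.1% of the UMIs of the chosen cells and Ager-high cells 32.9%.

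**Figure D2:**
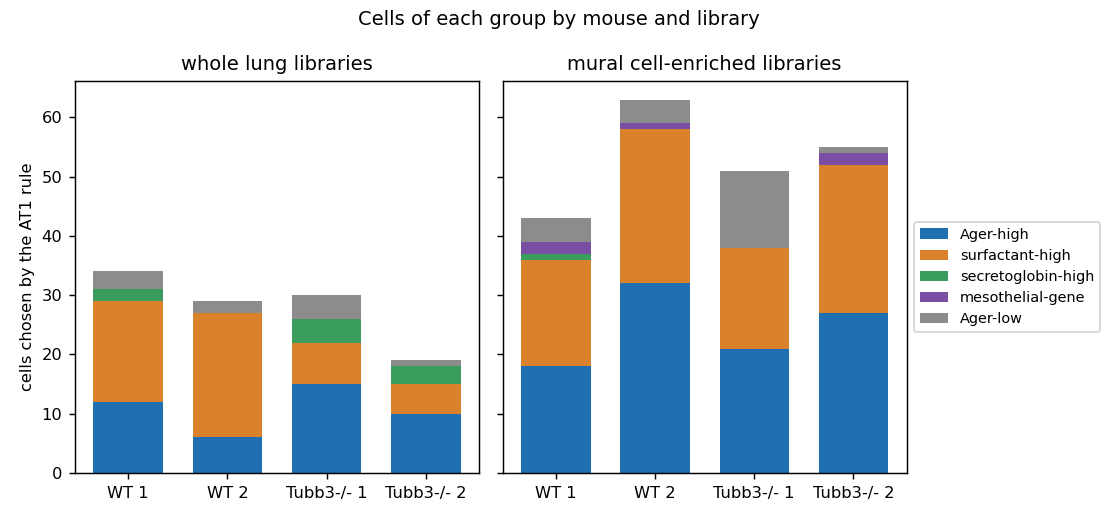
Number of cells chosen by the AT1 rule (y axis) per mouse (x axis) in the whole lung and the mural cell-enriched libraries, stacked by group. In whole lung, surfactant-high cells are the largest group in WT mice (17 and 21 cells), and Ager-high cells in Tubb3-/- mice (15 and 10 cells).

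Cells chosen by the rule made up 0.998% and 0.930% of the whole lung cells of the WT mice and 0.718% and 0.550% of those of the Tubb3-/- mice. The means were 0.964% ± 0.0484 and 0.634% ± 0.119 (SD, n = 2 each). Both Tubb3-/- mice lay below both WT mice (exact two-sided permutation p = 0.333, the smallest that 2 against 2 mice allow). Among epithelial cells, taken as cells with Epcam or Cdh1 and no Ptprc, Cdh5 or Pdgfra, the share was 33.0% and 34.9% in WT and 31.6% and 31.7% in Tubb3-/- mice (34.0% ± 1.36 against 31.6% ± 0.0620, SD, n = 2 each, exact two-sided permutation p = 0.333). The Ager-high cells alone ran the other way, at 11.7% and 7.23% in WT and 15.8% and 16.7% in Tubb3-/- mice of whole lung epithelial cells. With cells thinned to 2000 UMIs the share of all cells was 0.726% and 0.395% in WT and 0.587% and 0.477% in Tubb3-/- mice, which overlapped (exact two-sided permutation p = 1). A requirement of at least 4 of the 6 AT1 genes also turned the epithelial share (25.2% and 22.9% in WT and 27.4% and 26.7% in Tubb3-/- mice). The main shares rested on 19 to 34 chosen cells per mouse, those with at least 4 AT1 genes on 16 to 26 and those of Ager-high cells on 6 to 15, so exact 95% binomial intervals were wide, for example 24.1% to 43.0% of epithelial cells for WT 1 and 20.3% to 45.0% for Tubb3-/- 2. Intervals cover counting error only.

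Tubb3 itself had 0 UMIs in the chosen cells of every mouse, where 3 UMIs would have been 1.74 to 2.20 CPM per mouse, and the Cre transcript also had 0. Over all cells of the libraries, Tubb3 (chr8:123411424-123422015, mm10) was at 1.97 and 0.858 CPM in the WT and 0.275 and 0.335 CPM in the Tubb3-/- whole lung libraries, and at 5.36 and 3.70 against 0.695 and 0.655 CPM in the mural cell-enriched libraries. Every Tubb3-/- library lay below every WT library, and the 4 Cre UMIs found were all in Tubb3-/- libraries. The chosen cells thus gave no check of the genotype at this depth.

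Between genotypes, 13 of 9940 genes tested (0.131%) differed in the sums over all chosen cells, 5 higher and 8 lower in Tubb3-/- mice. The test was the quasi-likelihood test of edgeR, adjusted after Benjamini and Hochberg, and 957 genes had an unadjusted p under 0.05. The higher genes included products of airway secretory cells. Scgb3a2 (secretoglobin 3A2) was at 21.6 and 3.53 CPM in WT and 1086 and 331 CPM in Tubb3-/- mice (log2 fold change 5.89, standard error 0.68, adjusted p = 0.0206). Gabrp, a GABA receptor subunit of secretory epithelium, had 0 UMIs in WT mice and 26 UMIs in each Tubb3-/- mouse (adjusted p = 0.0269). Pigr, the receptor that carries immunoglobulin A across epithelium, was at 2.24 and 1.76 CPM in WT and 22.3 and 18.8 CPM in Tubb3-/- mice (log2 fold change 3.32, standard error 0.47, adjusted p = 0.0330). Secretoglobin-high cells, which numbered 3 in WT and 7 in Tubb3-/- mice, gave 98.6% of the Scgb3a2, 90.4% of the Gabrp and 84.6% of the Pigr UMIs. Haptoglobin (Hp, chr8:109575128-109579172) rose from 509 and 334 CPM to 1364 and 1211 CPM (log2 fold change 1.61, standard error 0.20, adjusted p = 0.0229), with 46.5% of its UMIs in secretoglobin-high and 44.3% in surfactant-high cells. Wnt4, a secreted ligand (chr4:137277489-137299726), was at 7.46 and 4.11 CPM in WT and 32.3 and 30.9 CPM in Tubb3-/- mice (log2 fold change 2.47, standard error 0.36, adjusted p = 0.0330), and 49.1% of its UMIs came from Ager-high and 30.6% from Ager-low cells. Wnt4 was the only higher gene with most of its UMIs in those groups.

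Of the 8 lower genes, Scel alone came almost wholly from Ager-high cells. Scel encodes sciellin, a precursor of the cornified envelope (chr14:103513342-103612797), and was at 113 and 96.4 CPM in WT and 35.9 and 43.0 CPM in Tubb3-/- mice (log2 fold change -1.40, standard error 0.19, adjusted p = 0.0326), with 98.1% of its UMIs in Ager-high cells. Igfbp6, an insulin-like growth factor binding protein (chr15:102144362-102149511), was at 442 and 327 CPM in WT and 99.9 and 67.2 CPM in Tubb3-/- mice (log2 fold change -2.20, standard error 0.22, adjusted p = 0.0157). Gpm6a, a membrane glycoprotein, was at 193 and 122 CPM in WT and 49.6 and 52.4 CPM in Tubb3-/- mice (log2 fold change -1.62, standard error 0.23, adjusted p = 0.0330). Both drew on Ager-high cells (46.0% and 54.6% of UMIs) and on the 5 mesothelial-gene cells (41.6% and 42.5%). Those 5 cells held most UMIs of Igfbp5 (79.8%) and of the retinoic acid enzyme Aldh1a2 (74.2%). Igfbp5 was at 544 and 199 CPM in WT and 20.1 and 22.8 CPM in Tubb3-/- mice (log2 fold change -4.10, standard error 0.44, adjusted p = 0.0157). Aldh1a2 was at 19.4 and 20.0 CPM in WT and 2.16 and 2.01 CPM in Tubb3-/- mice (log2 fold change -3.19, standard error 0.47, adjusted p = 0.0349). There were 2, 1, 0 and 2 of these cells in WT 1, WT 2, Tubb3-/- 1 and Tubb3-/- 2. Most UMIs of the remaining lower genes came from surfactant-high cells (88.5%, 78.8% and 99.5%). Arhgef38 was at 148 and 134 CPM in WT and 55.3 and 53.7 CPM in Tubb3-/- mice (log2 fold change -1.37, standard error 0.17, adjusted p = 0.0229). The sphingomyelin synthase gene Sgms1 was at 277 and 294 CPM in WT and 134 and 133 CPM in Tubb3-/- mice (log2 fold change -1.10, standard error 0.15, adjusted p = 0.0326). Gm39094, a gene model without a name, was at 40.3 and 76.4 CPM in WT and 8.63 and 11.4 CPM in Tubb3-/- mice (log2 fold change -2.54, standard error 0.37, adjusted p = 0.0330). The part of these cell numbers in the differences was not tested. Calls changed with the cells. Without the 10 secretoglobin-high cells 1 gene was called, and without the 5 mesothelial-gene cells 10. With at least 4 of the 6 AT1 genes edgeR called 0 genes (762 at an unadjusted p under 0.05). Without secretoglobin-high cells the log2 fold change of Hp went from 1.61 to 0.59, while those of Igfbp5 (-4.10), Scel (-1.35), Arhgef38 (-1.36), Wnt4 (2.53) and Sgms1 (-1.10) kept nearly the size they had in all chosen cells. Without mesothelial-gene cells Igfbp5 went to -1.36, Igfbp6 to -1.33 and Gpm6a to -0.95. With at least 4 AT1 genes Scel was at -1.65, Wnt4 at 2.46, Igfbp6 at -2.50 and Sgms1 at -0.41. Without WT 1, WT 2, Tubb3-/- 1 or Tubb3-/- 2 the counts were 203, 190, 12 and 43.

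**Figure D3:**
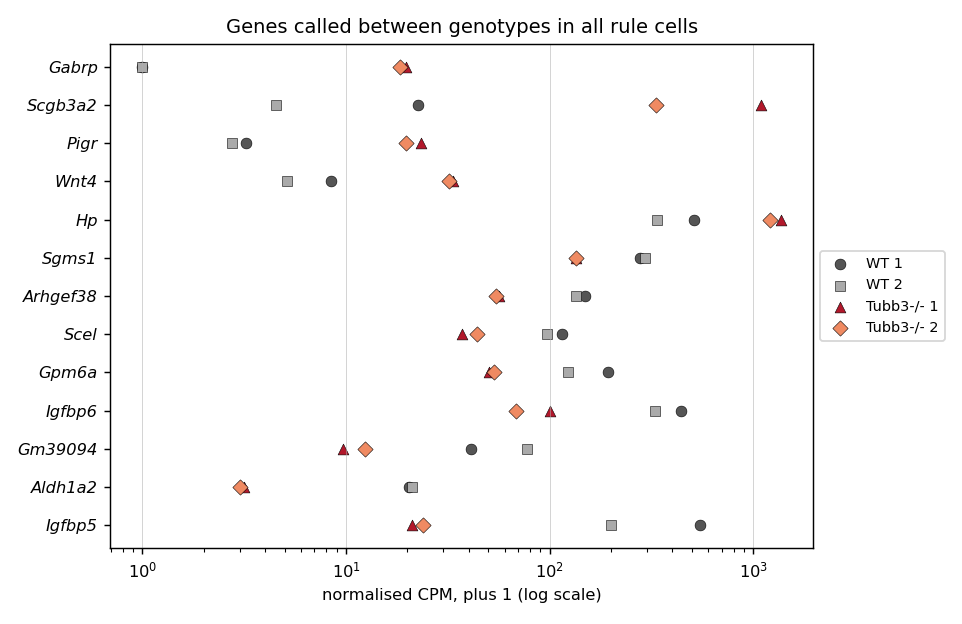
Normalised CPM plus 1 (x axis, log scale) of the 13 genes called between genotypes, 1 point per mouse, over all cells chosen by the AT1 rule. For each gene the Tubb3-/- mice (triangles and diamonds) do not overlap with the WT mice, from Igfbp5 at the bottom (log2 fold change -4.10) to Gabrp at the top.

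No AT1 marker list held a called gene in these sums. Of the 27 AT1 identity genes, all 27 were tested, with a median log2 fold change of -0.02, against 0.00 over all genes. None of 20 AT2 and surfactant genes was called either, but 11 of them were lower in both Tubb3-/- mice, beside 20.3% of all genes, and their median was -0.52, which stands beside the fewer surfactant-high cells of these mice. The lists of 19 p53 target and cell cycle inhibitor genes (18 tested, median 0.34), 24 basement membrane genes (20 tested, median -0.02) and 40 interferon response genes (27 tested, median -0.55) had 0 calls as well. Calls fell in the ligands (Wnt4 higher, Igfbp6 lower), the club cell genes (Scgb3a2 and Hp higher) and the acute phase genes (Hp higher). Of the p53 list, 12 genes were higher and 1 lower in both Tubb3-/- mice, beside 20.6% and 20.3% of all genes. The most abundant AT1 identity genes in WT against Tubb3-/- mice were Lmo7 at 1355 and 1701 against 1389 and 1388 CPM, Cldn18 at 1240.4 and 1264 against 1144 and 1800.3 CPM, Limch1 at 1147 and 1286 against 1216 and 1005 CPM and Aqp5 at 923 and 1019 against 940.2 and 1228 CPM. The most abundant AT2 genes were Sftpc at 88528 and 95182 against 38241 and 69531 CPM, Sftpa1 at 10958 and 14434 against 5471 and 8855 CPM, Lyz2 at 9301 and 12482 against 2916 and 6299 CPM and Scd1 at 4697 and 3692 against 2813 and 3801 CPM. Those of the p53 list were Cdkn1a at 655 and 725 against 1018 and 693 CPM, Btg2 at 752 and 749 against 685 and 719.9 CPM, Ccng1 at 145 and 175 against 296 and 209 CPM and Ccnd1 at 209 and 145 against 246 and 210.2 CPM. Among basement membrane genes they were Col4a3 at 647 and 716 against 507 and 521 CPM, Col4a4 at 614 and 618 against 533 and 429.8 CPM, Col4a1 at 519.9 and 428 against 529 and 600.3 CPM and Col4a2 at 439 and 380.2 against 413 and 449 CPM. The values of Ager overlapped, at 3760.0 and 4649 CPM in WT and 4049 and 4801 CPM in Tubb3-/- mice, as did those of the water channel Aqp5. Since rule genes chose the cells, Ager is given as a description.

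Within the 141 Ager-high cells, most listed AT1 genes were lower and most listed AT2, p53 target and MHC genes higher in both Tubb3-/- mice. The 30, 38, 36 and 37 cells of WT 1, WT 2, Tubb3-/- 1 and Tubb3-/- 2 gave 7114 genes with enough UMIs. Because this group was cut after values had been seen, its genes were not tested here. Genes are counted by whether both Tubb3-/- mice lay above or below both WT mice, which held for 22.3% (above) and 20.7% (below) of these genes. List members are counted in full, also those with too few UMIs for that filter. Genes named from here on for this group were chosen after their values had been seen, from the lists except for Scel, which is in no list. Of the 27 AT1 identity genes, 17 were lower and 2 higher. Among the lower ones, Lmo7 had a log2 fold change of -0.47, Limch1 of -0.48 and Sema3e of -0.72. Rtkn2 (chr10:67979570-68059740) was at 3047 and 2995 CPM in WT and 1839 and 1593 CPM in Tubb3-/- mice (log2 fold change -0.82). Hopx (chr5:77086988-77115121) was at 3296 and 3593 CPM in WT and 2510.4 and 1903 CPM in Tubb3-/- mice (-0.64). Ager (chr17:34597862-34600936) was at 10297 and 11658 CPM in WT and 8969 and 9659.6 CPM in Tubb3-/- mice (-0.24), a small gap beside that of Rtkn2. All 3 belong to the rule and not to the 27 genes, so they are given as descriptions, and Ager also set the group. Scel, called above, was at 427 and 304 CPM in WT and 116 and 111 CPM in Tubb3-/- mice (-1.68). The level of Aqp5 overlapped between genotypes, at 1784 and 2142 against 1545 and 2178 CPM.

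Most secreted factors named here were lower in both Tubb3-/- mice, whereas Wnt4, called above, had a log2 fold change of 3.71 in these cells. Vegfa (chr17:46016993-46032369), the endothelial growth factor, was at 2381 and 2264 CPM in WT and 1322 and 909.9 CPM in Tubb3-/- mice (-1.06). Igfbp2, a marker of mature AT1 cells, was at 2296 and 2658 CPM in WT and 1533 and 787 CPM in Tubb3-/- mice (-1.10), but overlapped in the whole lung libraries (1963 and 3598 against 2597 and 209 CPM). Igfbp6 was at 538 and 599.8 CPM in WT and 174 and 102 CPM in Tubb3-/- mice (-2.06). The neurotrophin Bdnf was at 246 and 362 CPM in WT and 102 and 62.3 CPM in Tubb3-/- mice (-1.92). The guidance ligand Sema3a (895 and 909 against 591 and 386 CPM, WT against Tubb3-/-) and Pdgfa, a mitogen of alveolar fibroblasts (503 and 502 against 373 and 277 CPM), were lower as well. The 50 ligands had 4 higher and 16 lower, the 44 receptors 5 higher and 12 lower and the 24 basement membrane genes 2 higher and 8 lower. Beside this, 22.3% of all genes were higher and 20.7% lower. In the whole lung libraries alone these counts were 5 higher and 10 lower, 7 higher and 7 lower, and 5 higher and 3 lower. Of all genes, 20.0% were higher and 15% lower there. The lower direction was thus not seen there for receptors and basement membrane genes, and the 20% of ligands lay near the share of all genes. Col4a3, a collagen IV chain of the alveolar basement membrane, was at 1965 and 1859 CPM in WT and 1174 and 1028 CPM in Tubb3-/- mice (-0.80), whereas Col4a1 overlapped at 1027 and 877 against 943 and 1012 CPM. Among 7 caveolar genes, Cav1 (1585 and 1355 against 704 and 1050.0 CPM), Cavin2 (1269 and 1188 against 655 and 453 CPM) and Ehd2 (453 and 461 against 310.3 and 394 CPM) were lower, and Cavin1 overlapped (178 and 242 against 225 and 225 CPM), but in whole lung libraries the 7 genes had 2 higher and 2 lower.

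Genes of AT2 cells ran the other way in the same Ager-high cells. Of the 20 AT2 and surfactant genes, 14 were higher and 0 lower. Lamp3, Slc34a2 and Fabp5 had only 4 UMIs each in both WT mice together, so their counts rest on the Tubb3-/- mice. The widest gap was that of Scd1, a fatty acid desaturase used in surfactant lipid synthesis (chr19:44394455-44407879), at 58.5 and 24.4 CPM in WT and 973 and 995 CPM in Tubb3-/- mice (4.65). Scd1 UMIs were present in 12 of 30 and 7 of 38 WT cells and in 21 of 36 and 24 of 37 Tubb3-/- cells (WT 1, WT 2, Tubb3-/- 1 and Tubb3-/- 2). Without the cell of each mouse with the most Scd1 UMIs the levels were 42.7 and 14.5 against 716 and 517 CPM, so that much of the level of Tubb3-/- 2 lay in a single cell. Sftpd, the surfactant protein D gene, was at 199 and 171 CPM in WT and 651 and 1083 CPM in Tubb3-/- mice (2.24). Napsa, an aspartic protease, was at 135 and 61.9 against 296 and 559 CPM (2.18), and the mucin Muc1 at 26.3 and 9.37 against 109 and 298 CPM (3.64). Sftpc, whose level had set the group, was at 298 and 266 against 588 and 1244 CPM. In the Cdh5-positive cells of the same mice, Scd1 was at 373 and 154 against 140.2 and 90.4 CPM, Sftpc at 5889 and 3016 against 2699 and 1867 CPM and Sftpd at 274 and 89.1 against 140.1 and 83.8 CPM, which for Scd1 and Sftpc was higher in WT mice. Those sums ran over both libraries, and cells of all mice were mixed within each pool. They thus gave no background for each genotype, and the part of free RNA was not tested. Club cell transcripts were also higher in Ager-high cells, with Cyp2f2 at 11.7 and 5.62 against 90.3 and 327 CPM and Hp at 32.2 and 1.87 against 262 and 379 CPM, but from few cells (7 and 5 Tubb3-/- cells with a Cyp2f2 UMI, 5 and 9 with an Hp UMI).

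Most listed target genes of p53 were higher in Ager-high cells of Tubb3-/- mice. Of the 19 p53 target and cell cycle inhibitor genes, 13 were higher and 0 lower. Cdkn1a, the cell cycle inhibitor p21 (chr17:29090976-29100727), was at 427 and 352 CPM in WT and 1674 and 981 CPM in Tubb3-/- mice (1.77). Ccng1, a p53 target cyclin, was at 129 and 93.7 CPM in WT and 417 and 329 CPM in Tubb3-/- mice (1.76). Thinned to 2000 UMIs, 33.3% and 36.8% of WT and 55.6% and 63.9% of Tubb3-/- Ager-high cells had a Cdkn1a UMI. Phlda3, another p53 target, was at 140.4 and 65.6 against 338 and 185 CPM, while Mdm2 overlapped at 140.4 and 124 against 169 and 88.2 CPM. The list also held the cyclin Ccnd1, which is not a cell cycle inhibitor, at 58.5 and 31.9 against 159.8 and 149 CPM. Of the transitional genes, Clu, a secreted chaperone, was at 339 and 298 CPM in WT and 1165 and 1014 CPM in Tubb3-/- mice (1.78), but Krt8, the keratin that marks the transitional state, overlapped at 579 and 596 against 565 and 832 CPM and Krt19 was lower at 602 and 705 against 417 and 583 CPM. In Cdh5-positive cells Cdkn1a went the other way, at 554 and 649 against 540.0 and 522 CPM. Thinned to 2000 UMIs, 59.3% of Cdh5-positive and 48.2% of Ager-high cells had a Cdkn1a UMI, so the former gave no background for this gene.

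Most antigen presentation genes were higher too over both libraries, while interferon response genes lay near the shares of all genes in both directions. Of the 16 MHC genes, 12 were higher and 0 lower. H2-K1 of class I was at 652 and 478 CPM in WT and 1538 and 1375 CPM in Tubb3-/- mice (1.37). Cd74, the class II invariant chain, was at 714 and 395 CPM in WT and 1165 and 2704 CPM in Tubb3-/- mice (1.82). Of 40 interferon response genes, 11 were higher and 11 lower (27.5% each), near the 22.3% and 20.7% of all genes. Ifit3, an interferon-induced antiviral gene, was at 117 and 112 CPM in WT and 27.8 and 25.9 CPM in Tubb3-/- mice (-2.09) and Ifit1 at 87.7 and 76.8 against 16.2 and 27.7 CPM. The membrane protein gene Ifitm2 went the other way, at 67.3 and 99.3 against 127 and 168 CPM. Of 22 oxidative stress genes, 11 were higher and 1 lower, and the glutathione synthesis gene Gclc was at 73.1 and 54.4 against 227 and 391 CPM. Within the whole lung libraries 4 of the 22 were higher and 2 lower, beside 20.0% and 15% of all genes, so the higher direction was not seen there. Among sodium channel subunits, Scnn1g (562 and 575 against 421 and 277 CPM) was lower, and Scnn1a was slightly lower (673 and 671 against 629.9 and 647 CPM) but higher within the whole lung libraries (621 and 661 against 754 and 704 CPM).

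**Figure D4:**
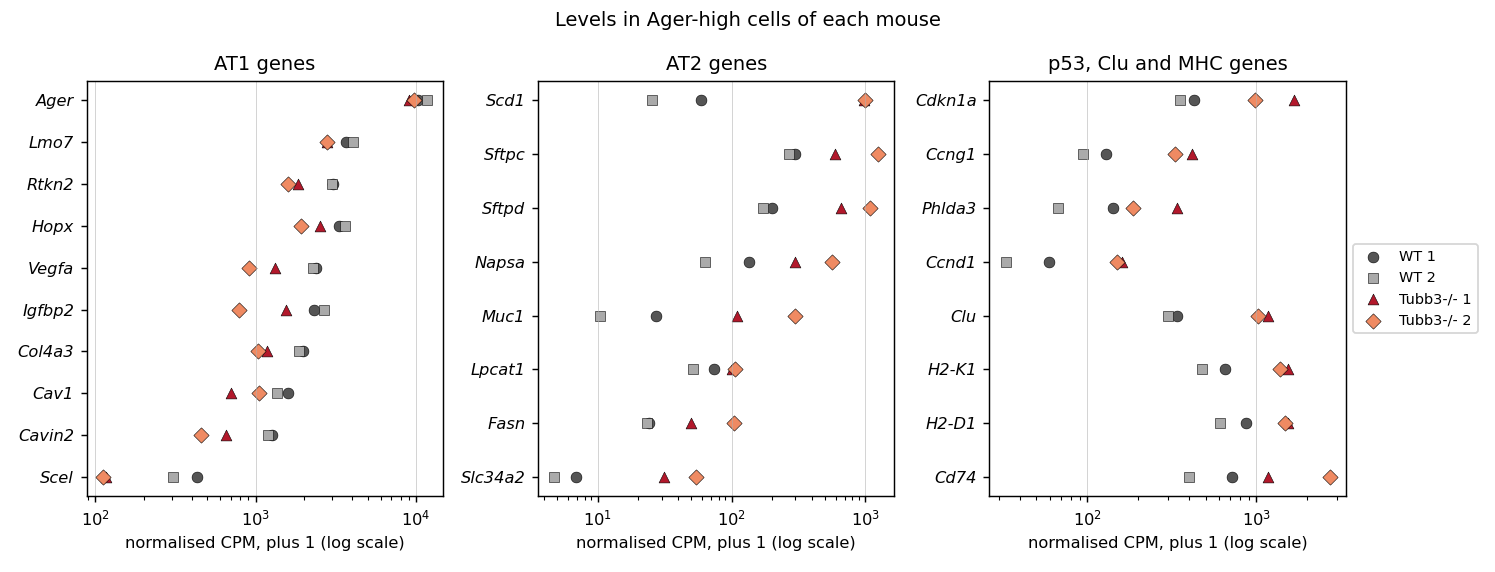
Normalised CPM plus 1 (x axis, log scale) in Ager-high cells, 1 point per mouse, for AT1 genes (left), AT2 genes (middle) and genes of the p53 list (among them the cyclin Ccnd1), Clu and MHC genes (right). All were chosen after their values had been seen, from the lists except for Scel, which is in no list. Both Tubb3-/- mice lie left of both WT mice for each AT1 gene shown and right of them in the other panels, with the widest gap at Scd1 (58 and 24 against 973 and 995 CPM).

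The same lists were counted over all their members under narrower choices of cells, made after the values had been seen. In the 108 Ager-high cells with fewer than 30 Sftpc and at least 40 Ager UMIs per 10000, the AT1 identity genes had 3 higher and 17 lower, AT2 genes 10 higher and 0 lower, p53 and inhibitor genes 12 higher and 0 lower and MHC genes 10 higher and 0 lower, beside 23% higher and 19.2% lower of all genes. With the cell that held the most UMIs of a gene left out of each mouse, the counts in the same order were 2 higher and 19 lower, 14 higher and 0 lower, 14 higher and 0 lower and 12 higher and 0 lower, beside 23.4% higher and 20.0% lower. Within the whole lung libraries, with 6 to 15 Ager-high cells per mouse, they were 0 higher and 9 lower, 14 higher and 0 lower, 6 higher and 2 lower and 4 higher and 1 lower, beside 20.0% higher and 15% lower. Within the mural cell-enriched libraries they were 3 higher and 19 lower, 12 higher and 0 lower, 13 higher and 0 lower and 11 higher and 0 lower, beside 22.7% higher and 21.4% lower. For MHC genes in whole lung, the 4 of 16 that were higher lay near the share of all genes. Scd1 was at 85.7 and 50.1 against 637 and 717 CPM in whole lung and 36.3 and 17.3 against 1163 and 1034 CPM in mural cell-enriched Ager-high cells, and Vegfa at 2135 and 2746 against 1349.7 and 933 CPM and 2339 and 2015 against 1206 and 851 CPM. Hp was not apart in whole lung Ager-high cells, at 42.8 and 0 against 0 and 32.6 CPM.

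The 136 surfactant-high cells differed between genotypes in the opposite sense for most AT1 genes. Of the 27 AT1 identity genes, 17 were higher and 2 lower in both Tubb3-/- mice, beside 18.2% and 18.4% of all 7663 genes. Vegfa was at 146 and 119.6 CPM in WT and 323 and 224 CPM in Tubb3-/- mice (1.04). The guidance ligand Sema3e was at 14.5 and 15.2 CPM in WT and 73.1 and 30.6 CPM in Tubb3-/- mice (1.73), both below their levels in Ager-high cells. Of the 20 AT2 genes, 11 were lower and 1 higher, with Sftpc at 155754 and 163927 CPM in WT and 106827 and 142797 CPM in Tubb3-/- mice and the lysozyme gene Lyz2 at 16278 and 21455 CPM in WT and 7851 and 12459 CPM in Tubb3-/- mice. Cdkn1a was slightly lower here (615 and 722 against 583 and 556 CPM). Immediate early genes were lower, 8 of 18 with 0 higher, with Fosb at 839.6 and 794 against 343 and 384 CPM and Egr1 at 758 and 960.1 against 512 and 435 CPM. A test of the difference between both groups was not made, since both were cut after values had been seen.

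**Figure D5:**
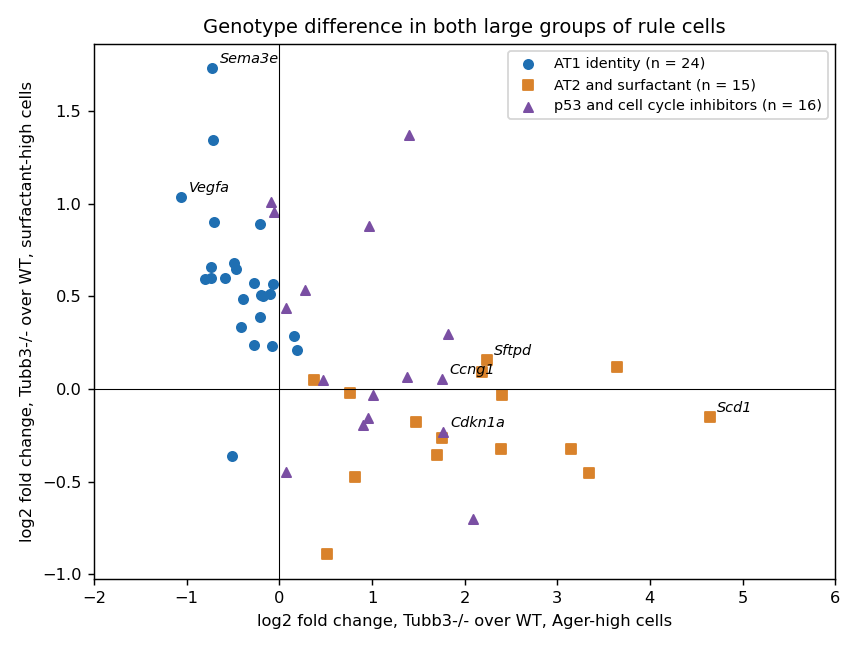
Log2 fold change of Tubb3-/- over WT mice in Ager-high cells (x axis) against that in surfactant-high cells (y axis) for the genes of 3 lists that had enough UMIs in both groups, 1 point per gene. AT1 identity genes gather at the upper left, lower in Ager-high and higher in surfactant-high cells, and AT2 genes at the right, with Scd1 farthest out (4.65 in Ager-high cells).

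The chosen cells of a mouse also differed between its libraries. With the mouse as a block, edgeR's quasi-likelihood test on 7698 genes called 114 higher (1.48%) and 36 lower (0.468%) in the mural cell-enriched libraries. No gene of the AT1 identity, rule or AT2 lists was among them. The higher genes were led by smooth muscle and matrix genes. Acta2, smooth muscle actin, was at 29.5, 99.5, 38.6, 39.8 CPM in the whole lung libraries and 638, 921, 463, 513 CPM in the mural cell-enriched libraries (WT 1, WT 2, Tubb3-/- 1 and Tubb3-/- 2, log2 fold change 3.67, standard error 0.20, adjusted p = 3.73e-06). Every mouse was higher in its mural cell-enriched library, as it also was for Cnn1 and Lmod1 of smooth muscle (log2 fold change 3.78 and 5.47), the matrix regulator Ltbp1 (3.96), the sulfatase Sulf1 (5.88) and the chemoattractant Rarres2 (4.15). The lower genes were led by immune genes, with the macrophage gene Chil3 at 119.9, 103, 88.7, 116 CPM in the whole lung libraries and 1.25, 1.72, 2.28, 1.71 CPM in the mural cell-enriched libraries (log2 fold change -5.81), and included the immunoglobulin gene Igkc (-6.07), the chemokine Ccl6 (-4.86) and Srgn and Tyrobp of leukocytes (-3.78 and -2.77). Of 13 fibroblast genes 9 were tested and 7 were called higher, and of 9 mural genes 2 were tested and both were called higher. The sums over all cells of these libraries went the same way for 111 of the 114 higher and 32 of the 36 lower genes, with medians of 1.43 and -1.20 (log2, mural cell-enriched over whole lung), and the part of free RNA was not tested. Without WT 1 75 genes were called, and without Tubb3-/- 2 86.

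Beside the 60 cells of an AT2 rule (at least 3 of Lamp3, Abca3, Slc34a2, Etv5, Lpcat1 and Napsa and fewer than 3 of the 6 AT1 genes), the chosen cells were marked by AT1 genes outside the rule. Means over the 4 mice, with the range, are given as descriptions, since the rule parted the cells on related genes. The guidance ligand Sema3e was at 422 CPM (303 to 571) against 0.910 CPM (0 to 3.64), Scel at 71.0 CPM (36.4 to 111) against 0 CPM (0 to 0), Igfbp2 at 549.5 CPM (297 to 822) against 18.7 CPM (0 to 65.5) and Spock2, a matrix proteoglycan, at 303 CPM (267 to 338) against 13.9 CPM (4.65 to 32.8). Pdpn, the podoplanin of the AT1 surface, was at 225 CPM (208 to 238) against 14.1 CPM (6.65 to 21.8), and Nt5e, which makes adenosine at the cell surface, at 83.6 CPM (55.0 to 107) against 2.33 CPM (0 to 9.31). The ranges of these 6 genes did not overlap. Others of the 15 genes with the largest ratios were Rasgrf2, Mcc, Sema3a, Cyp2b10, Bcar3, Plb1, Cped1 and Ndnf, and the digestive protease gene Pgc, whose range in the chosen cells was wide and overlapped (6.95 to 392 CPM). In the other direction, all 15 genes with the largest ratios, led by matrix genes such as Thbs2, Cthrc1 and Col1a1, had ranges that overlapped.

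The chosen cells, with surfactant-high and all other groups summed, were set beside the 144 cells that passed the rest of the rule but had a Cldn4 UMI. They were higher in AT1 and AT2 genes and lower in part of the transitional genes. All 4 mice lay apart for 18 of 27 AT1 identity and 18 of 20 AT2 genes, which were higher, beside 9.89% of all genes. Of the 23 transitional genes 12 were lower, beside 12.2%, and 0 higher. Among these were the keratins Krt8, at 520.3 CPM (421 to 587) against 1562 CPM (1215 to 1785), and Krt18, at 538 CPM (444 to 641) against 1829.8 CPM (1451 to 2359). Igfbp2 was at 549.5 CPM (297 to 822) against 14.2 CPM (3.13 to 26.2), Spock2 at 303 CPM (267 to 338) against 41.8 CPM (21.2 to 72.9) and Scel at 71.0 CPM (36.4 to 111) against 8.22 CPM (0 to 12.1). Lyz2, which AT2 cells and macrophages express, was at 7614 CPM (2955 to 12293) against 1059.8 CPM (446 to 2509), and complement Hc at 635 CPM (321 to 902) against 84.3 CPM (27.7 to 207). Their ranges did not overlap. Clu was lower in the chosen cells, at 809 CPM (541 to 1329) against 4088 CPM (3108 to 5066), as were the stress regulator Nupr1 (279 CPM (216 to 365) against 1376 CPM (375 to 2121)) and the surface gene Ly6a (40.2 CPM (24.9 to 59.0) against 263 CPM (108 to 498)). Over both libraries, Cldn4-positive cells were 33.0% and 15.6% in WT and 36.7% and 36.2% in Tubb3-/- mice of all cells that passed the rest of the rule, which did not overlap, and in the whole lung libraries 27.7% and 17.1% in WT and 25.0% and 20.8% in Tubb3-/- mice, which overlapped.

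A test of whether the genotype difference itself was unlike in the chosen cells and in the 60 AT2-rule cells called 0 of 9349 genes by edgeR, with 388 at an unadjusted p under 0.05, and DESeq2 called 2. The AT2-rule cells numbered 10, 26, 12 and 12 per mouse. The genes with the smallest p-values, none past the threshold, were Crip1 (interaction log2 -3.00, adjusted p = 0.237 by edgeR), Upk3b, Igfbp5, Pkhd1l1, Fxyd3, Aebp1, Aqp1, Lrg1, Upk1b and Gsta3 in the direction of a lower effect in the chosen cells. In the other direction they were Retnla (interaction log2 3.05, adjusted p = 0.283 by edgeR), Ism1, Fgfbp1, Foxq1, Gria3, Hhip, Traf4, Csmd1, Ranbp10 and Kcnip4. Upk3b, Igfbp5 and Pkhd1l1 were among the leading genes of the 5 mesothelial-gene cells. In AT2-rule cells, Upk3b was at 0 and 0 CPM in WT and 0 and 138 CPM in Tubb3-/- mice. Pkhd1l1 was at 0 and 0 against 4.65 and 61.9 CPM there. Hhip (4.62 and 395 against 0 and 0 CPM) and Csmd1 (9.23 and 368 against 0 and 3.64 CPM) stood high in WT 2 alone.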

How the data were processed

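Libraries of whole lung cells and mural cell-enriched cells of 4 mice were tagged (CellPlex) and sequenced in 2 pools with 10x 3' chemistry. The deposited files hold UMI counts per gene and cell, which the authors made with Cell Ranger 7.1.0 on mm10, 1 matrix per library, with no normalisation. Tagged cells of the 4 mice were pooled by sample type before sorting, and each mouse has its own matrix after separation by tag. Tag counts in the same matrices, 26.2% to 36.4% of UMIs, were left out of totals. Gene positions came from the GENCODE annotation of the same build. The members and gene lists were chosen with earlier results of these data known.

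Cells were chosen by the rule given above, and UMIs were summed per mouse (or library). For tests on these sums, edgeR 4.0.16 (R 4.3.3) was used (filterByExpr, TMM, quasi-likelihood test, Benjamini-Hochberg adjustment over all genes, threshold 0.05), with genotype alone, with the mouse as a block for the libraries, and with an interaction for AT2-rule cells. DESeq2 1.42.0 was an alternative. Shares were compared by exact permutation. CPM are UMIs per 1000000, TMM-normalised where tested. The scripts were tested on simulated data. Scrublet (scanpy 1.11.5) marked 2 whole lung cells with its own threshold (0.0141%), so the threshold of the other pool (0.213) was used for both, which marked 644 cells (3.86%) and 325 cells (2.30%).

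Named genes were, per direction, the 10 that changed most among those called, at a mean of at least 10 CPM, or, where fewer than 5 were called, the 10 with the smallest p, the called and the 4 most abundant members of lists described, and the 15 largest ratios beside other cells at 50 CPM or more. Genes of the Ager-high and surfactant-high cells were named after their values were seen. Alternatives covered the test, scaling, filter, mice, replicate block, libraries, doublets, rule, mitochondrial limit (10%), thinning to 2000 UMIs and, added after seeing the data, the cell groups.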

Additional observations from a re-analysis of the deposited data

Results flagged for a closer look

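Some AT1 genes lay apart in opposite directions in the Ager-high and the surfactant-high cells: both Tubb3-/- mice lay below both WT mice in the former and above them in the latter. This held for 12 of the 24 AT1 identity genes outside the rule that had enough UMIs in both groups. It also held for Hopx, Ager and Rtkn2, whose detection chose the cells and whose values are a description. Of all 6548 genes read in both groups, 571 were apart in opposite directions, either way round. The difference was not tested, since both groups were cut after values had been seen. The difference of the log2 fold changes (surfactant-high minus Ager-high cells) was 2.09 for Vegfa, 1.11 for Lmo7, 1.09 for Gramd2, 1.39 for Col4a3, 1.34 for Col4a4. It was 0.88 for Krt7, 1.16 for Limch1, 0.74 for Mal2, 2.05 for Scnn1g, 1.61 for Sec14l3, and 2.45 for Sema3e, 1.18 for Tspan8, 1.45 for Hopx, 0.71 for Ager, 2.79 for Rtkn2. Ager had also set the group.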

How the results depend on the processing

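The count of 13 genes called between genotypes moved to 29 with DESeq2, 338 with no filter on low counts, 0 with at least 4 of the 6 AT1 genes and 2 in cells thinned to 2000 UMIs, and it ran from 12 to 203 when 1 mouse was left out, where the lone mouse is assumed to vary like the other group. With alternatives chosen after seeing the data it was 41 in Ager-high cells only, 50 with surfactant-high cells left out and 1 with secretoglobin-high cells left out. Scgb3a2 then turned to a log2 fold change of -0.38, and Sgms1 turned to 0.37 in thinned cells. With the replicate block the count was 331; the numbers name mice only, and with 2 pairs the deviations correlated at 0.0578 over genes, so no pairing was read from them.

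The share of kept cells turned to a difference of 0.0518 percentage points in Ager-high cells only, and ran from -0.414 to -0.246 without 1 mouse. It shrank from -0.330 to -0.0280 in thinned cells (exact permutation p = 1) and to -0.144 with at least 4 AT1 genes (p = 0.667), and the mice then overlapped. The share of epithelial cells turned to 2.95 with at least 4 AT1 genes, 3.39 in thinned cells and 6.79 in Ager-high cells only, and ran from -3.32 to -1.39 without 1 mouse. Between libraries, 509 genes were called with no filter and 36 in Ager-high cells only, and 75 to 198 without 1 mouse. The interaction with AT2-rule cells had 2 calls with DESeq2, 2 in whole lung libraries only and 65 with no filter. The cause of these moves was not tested. Of the single called genes between genotypes, 118 values kept direction and call under the alternatives not added after seeing the data, and 38 kept direction only. A further 1 turned. Genes that an alternative did not test, such as Scgb3a2 and Gabrp in thinned cells, are left out of these counts. Depth limits low genes: 3 UMIs were 0.499 CPM over all chosen cells.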
